A study of Mus musculus with 15 samples.

Results

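The Cyp3a genes encode cytochrome P450 enzymes of the CYP3A subfamily, and 8 of them were followed by name in mouse liver: Cyp3a11, Cyp3a13, Cyp3a16, Cyp3a25, Cyp3a41a, Cyp3a41b, Cyp3a44 and Cyp3a59. They were 8 of the 37991 gene identifiers counted and 8 of the 9 whose symbol starts with Cyp3a. The ninth, Cyp3a57, had 10 to 36 reads in a library and was not a member. Whole-liver RNA was sequenced from 15 female C57BL/6 mice, 1 mouse in each library. There were 5 young WT mice (90 d), 5 old WT mice (600 d) and 5 old KO mice (600 d), where KO is a whole-body deletion of S6K1, the ribosomal protein S6 kinase encoded by Rps6kb1. WT and KO mice came from heterozygous breeding and were fed chow. No young KO group was analysed here, so a genotype difference was measured in old mice only.

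CYP3A enzymes sit in the endoplasmic reticulum of hepatocytes and oxidize steroids, bile acids and a large share of drugs, with electrons passed on by P450 reductase (Por) and a heme group whose synthesis starts with Alas1. Their transcription is induced by xenobiotics through the nuclear receptors PXR (Nr1i2) and CAR (Nr1i3). In mice, Cyp3a11 is the main form of adult liver, while Cyp3a41 and Cyp3a44 are known as female-predominant forms under the pattern of growth hormone secretion and Cyp3a16 as a form of the perinatal liver.

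All members lie on chromosome 5 and were annotated as protein coding in NCBIM37 (mm9), the build of the counts. A cluster of 7 members spanned chr5:146197178-146924861, or 727.684 kb, in the order Cyp3a16, Cyp3a41b, Cyp3a41a, Cyp3a44, Cyp3a11, Cyp3a25 and Cyp3a59, with 0 other counted gene identifiers within the span. Cyp3a13 (chr5:138334160-138362847) lay 7.83 Mb away from it. Cyp3a59 was on the plus strand and the other 7 members were on the minus strand.

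The sequence just before each start site is shown for the members that moved together and for a near-identical pair that did not get the same call. The letters are RefSeq's (its table is of build GRCm38.p6) and were found at 1 place each on chromosome 5 of NCBIM37. They are the 150 bases before the start, 5′ to 3′ on the gene's own strand, at chr5:146230593-146230742 (minus strand) for Cyp3a16, chr5:146531713-146531862 (minus) for Cyp3a41a, chr5:146617451-146617600 (minus) for Cyp3a44, chr5:146821194-146821343 (minus) for Cyp3a25 and chr5:146890684-146890833 (plus) for Cyp3a59. Capitals mark ATCAAT, the letters searched for HNF6, a liver factor.
Cyp3a16: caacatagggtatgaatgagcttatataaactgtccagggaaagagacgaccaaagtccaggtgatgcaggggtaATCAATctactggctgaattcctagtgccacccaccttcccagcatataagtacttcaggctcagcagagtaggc
Cyp3a41a: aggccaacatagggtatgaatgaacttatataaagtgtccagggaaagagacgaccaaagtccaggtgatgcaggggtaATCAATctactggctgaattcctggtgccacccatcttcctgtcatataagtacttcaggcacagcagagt
Cyp3a44: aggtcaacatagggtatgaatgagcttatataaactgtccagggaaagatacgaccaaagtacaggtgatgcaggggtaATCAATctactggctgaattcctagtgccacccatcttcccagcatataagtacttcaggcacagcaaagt
Cyp3a25: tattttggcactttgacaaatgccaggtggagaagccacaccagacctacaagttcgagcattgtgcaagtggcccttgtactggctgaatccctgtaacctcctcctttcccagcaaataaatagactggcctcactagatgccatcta
Cyp3a59: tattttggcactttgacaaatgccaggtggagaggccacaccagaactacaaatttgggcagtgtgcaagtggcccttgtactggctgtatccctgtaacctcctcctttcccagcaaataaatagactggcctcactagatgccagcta

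Over the 250 bases before the start, Cyp3a16, Cyp3a41a, Cyp3a41b and Cyp3a44 were 91.3% to 99.6% identical to each other. Cyp3a25 and Cyp3a59 were 95.6% identical. Cyp3a11 was 72.5% to 76.6% identical to the 4 genes, and Cyp3a13 was at most 58.0% identical to any member. The starts are RefSeq's. For Cyp3a11 the window's last base lay 109 bases inside the gene as annotated in NCBIM37, which starts at chr5:146691540. In the other members that base was 0 or 1 base from the annotated start. ATCAAT, on either strand, was found in exactly those 4 members of 8, at -75 in Cyp3a16 and -71 in the others, and in 6.72% of 32851 windows of the same length before the starts of 27025 genes. The 4 windows are near copies, so their matches are not independent of each other and cannot be weighed against that share. The same stretch is set against that of Cyp3a11 over 30 bases, at chr5:146230650-146230679 for Cyp3a16 and chr5:146691499-146691528 for Cyp3a11, both on the minus strand. These bases of Cyp3a11 lie within its annotated gene, though before its RefSeq start. Cyp3a41a, Cyp3a41b and Cyp3a44 had the same 30 letters as Cyp3a16.
Cyp3a16, Cyp3a41a, Cyp3a41b and Cyp3a44: gatgcaggggtaATCAATctactggctgaa
Cyp3a11: gatgcaaaggtgatccatctactggcttga

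TGTTTAC, searched for HNF3 on both strands, was found in Cyp3a11 and the same 4 genes (5 of 8 members, and 3.17% of all windows). TATAAA, on either strand, was found in 5 of 8 members and 12.4% of windows. It was at -126 in Cyp3a16, at -122 in Cyp3a41a, Cyp3a41b and Cyp3a44, and at -234 in Cyp3a11. TTCNNNGAA, the letters searched for STAT5 on both strands, was in 0 of 8 members and 7.02% of windows. Pairs of AGGTCA or AGTTCA set 3 or 4 bases apart as direct repeats, or 6 apart as everted repeats, the arrangements that PXR and CAR bind, were in 0 of 8 members and in at most 0.0244% of windows. These are matches of letters in 1 short window, not binding sites.

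Near-identical members limit what a read can tell. Of all 50-base windows of a member's annotated coding transcripts, the length of the reads, the percentage found at no other place in the genome or another coding transcript was 100% for Cyp3a13, 88.2% for Cyp3a16, 85.2% for Cyp3a11, 75.1% for Cyp3a44, 74.4% for Cyp3a25 and 71.7% for Cyp3a59. For Cyp3a41a it was 1.15% (23 of 2000 windows) and for Cyp3a41b 6.54% (131 of 2004), as their transcripts were 99.7% identical. The division of reads between Cyp3a41a and Cyp3a41b is therefore uncertain, and their summed counts are given beside the separate values. Whether reads with several matches were counted is not known here. If they were not, both genes would be undercounted, and summing would not restore the missing reads.

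**Figure D1:**
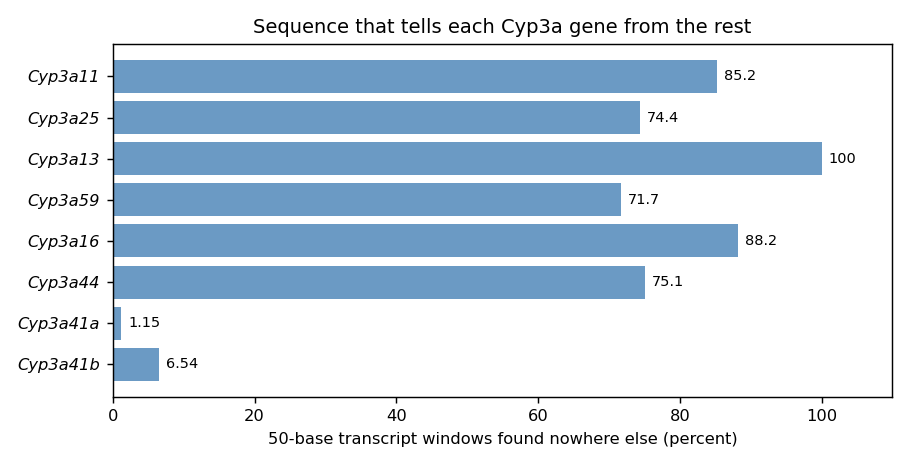
Percentage of 50-base windows of each member's transcripts (horizontal axis) that were found nowhere else in the genome or other coding transcripts, 1 bar for each gene. Cyp3a41a (1.15%) and Cyp3a41b (6.54%) stand far below the other 6 genes, which lie between 71.7% and 100%.

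Libraries held 21801754 to 38065359 counted reads, and the 8 members took 0.256% to 0.478% of them. Rps6kb1 was at 15.2 to 20.8 CPM (a count per 1000000 reads of the library, with TMM-adjusted totals) in old KO libraries and 33.3 to 45.4 CPM in the WT libraries, without overlap. Hepatocyte markers summed to 101919 to 166248 CPM in all libraries, and the 8 small-intestine markers to 511 to 1346 CPM for young WT, 432 to 745 CPM for old WT and 285 to 511 CPM for old KO. Of these 8, Sis and Cdx2 were at 0 in every group, and the part of the others in the Cyp3a values was not tested. In whole liver, fewer cells of a type and less RNA per cell cannot be told apart. All 8 members were among the 14258 genes that passed the filter on low counts. Cyp3a41b had 6 to 106 reads in the young WT libraries, so it passed through the old mice.

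Cyp3a11 was the most abundant member per kilobase (kb) of exon in each group, at 1221 ± 184 CPM per kb in young WT (mean ± s.d., n = 5), 679 ± 420 in old WT and 531 ± 262 in old KO. In young WT it was followed by Cyp3a25 (505 ± 85.2) and Cyp3a13 (112 ± 21.2), and the ranges of these first 3 genes did not overlap the next in order. The other 5 young WT levels ran from Cyp3a59 (32.1 ± 6.82) through Cyp3a44 (27.6 ± 11.9), Cyp3a16 (20.2 ± 23.3) and Cyp3a41a (4.95 ± 3.64) to Cyp3a41b (0.852 ± 0.835), and each overlapped its neighbour. In old WT, Cyp3a16 (162 ± 124 CPM per kb) and Cyp3a44 (148 ± 163) stood above Cyp3a13 (92.3 ± 24.2), and every neighbour in the order overlapped. In old KO, Cyp3a44 (226 ± 159) and Cyp3a16 (173 ± 117) likewise stood above Cyp3a13, and only Cyp3a13 against Cyp3a59 and Cyp3a59 against Cyp3a41b did not overlap. This order is per kb of exon. Divided instead by the 50-base windows found nowhere else, only 23 for Cyp3a41a, the first place changed in both old groups. Cyp3a41a then had a mean share of the family sum of 36.7% in old WT and 31.6% in old KO. Cyp3a11 had 24.6% and 22.96%. In young WT Cyp3a11 stayed above Cyp3a41a, at 52.2% against 14.95%. Which scale fits depends on whether reads with several matches were counted.

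The first comparison asked how old age changed the members in WT liver. Of 8 members, 4 rose (Cyp3a16, Cyp3a41b, Cyp3a44 and Cyp3a59), 0 fell and 4 did not pass the test (edgeR's quasi-likelihood test, adjusted over 14258 genes). Cyp3a41b passed the filter on low counts through the old mice, so its place among the 4 rests on the mice where it is high. Over all genes tested, 9.92% were called higher and 8.91% lower. The median log2 fold change was 1.18 over the members and 0.0080 over all genes. The CPM ranges of young and old WT did not overlap for 0 of 8 members, against 11.4% of all genes.

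Cyp3a41b was at 1.13, 0.183, 3.46, 0.271 and 3.71 CPM in young WT mice 1, 2, 3, 4 and 6. It was at 49.0, 56.3, 47.0, 0.880 and 91.7 CPM in old WT mice 1, 4, 5, 7 and 10. All old WT mice but mouse 7 were above every young mouse. The fitted log2 fold change was 4.87 ± 1.05 (s.e., adjusted p = 0.00562), and the call held without each library in turn but not under limma voom (adjusted p = 0.162). Cyp3a41a, its near copy, was at 9.08, 3.30, 21.5, 3.98 and 12.8 CPM in the young WT mice and at 26.6, 39.9, 29.8, 8.98 and 64.0 CPM in the old WT mice. Its log2 fold change of 1.75 ± 0.606 did not pass the test (adjusted p = 0.0544). It passed under DESeq2 (adjusted p = 0.0471), in a fit of the 10 WT libraries alone (edgeR adjusted p = 0.0489), and without young WT 3, old WT 7 or old KO 5 (lowest adjusted p = 0.0248). With the counts of both summed, the log2 fold change was 2.81 and passed.

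Cyp3a16 was at 22.2, 2.50, 39.2, 8.05 and 102 CPM in young WT mice 1, 2, 3, 4 and 6. In old WT mice 1, 4, 5, 7 and 10 it was at 132, 330, 292, 44.1 and 602 CPM. Only old WT mouse 7 fell within the young range. The log2 fold change was 3.01 ± 0.985 (adjusted p = 0.0430). It passed in 5 of 15 fits that left out 1 library. The calls were lost without young WT 1, 2, 3 or 4, without old WT 1, 4, 5 or 10, and without old KO 2 or 4 (highest adjusted p = 0.0968), over log2 fold changes of 2.52 to 3.97.

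Cyp3a44, a female-predominant form, was at 69.4, 39.8, 84.7, 26.1 and 50.9 CPM in the young WT mice. It was at 42.6, 360, 233, 16.4 and 803 CPM in the old WT mice. Old WT 4, 5 and 10 were above every young mouse, while old WT 1 lay within the young range and old WT 7 below it. The log2 fold change was 2.42 ± 0.818 (adjusted p = 0.0486), and it was 1.59 without old WT 10. The call was lost under limma voom (1.45, adjusted p = 0.251) and in a fit of the 10 WT libraries alone (2.42, edgeR adjusted p = 0.0597). It held in 4 of the 15 fits that left out 1 library. Among these fits it was lost without any 1 of the 5 young WT libraries, old WT 4, 5 or 10, or old KO 2, 4 or 6 (highest adjusted p = 0.160).

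Cyp3a59 had the smallest fitted change of the 4 genes called. It was at 62.5, 80.5, 70.7, 63.5 and 43.4 CPM in the young WT mice and at 72.9, 137, 82.8, 94.1 and 104 CPM in the old WT mice. Old WT 1 was the only old WT mouse within the young range. The log2 fold change was 0.61 ± 0.186 (adjusted p = 0.0318). The call held in 10 of 15 fits that left out 1 library and was lost without young WT 1, 4 or 6 or old WT 4 or 10 (highest adjusted p = 0.0855).

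Cyp3a11, the main adult form, was at 2335, 3092, 3178, 3249 and 2454 CPM in the young WT mice. It was at 1179, 1817, 1441, 3096 and 422 CPM in the old WT mice. Old WT 7 lay within the young range and the other 4 old WT mice lay below it. The log2 fold change of -0.85 ± 0.404 did not pass (adjusted p = 0.155). Without old WT 7 it was -1.23 and passed (adjusted p = 0.0361).

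Cyp3a25 had 792 to 1217 CPM in young WT and 650 to 1046 CPM in old WT, a log2 fold change of -0.26 ± 0.155 (adjusted p = 0.256). Cyp3a13, which is also expressed in the intestine, had 219 to 366 CPM in young WT and 188 to 340 CPM in old WT. Its log2 fold change was -0.28 ± 0.176 (adjusted p = 0.291). Both ranges overlapped over most of their length, and neither gene was called in any alternative.

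**Figure D2:**
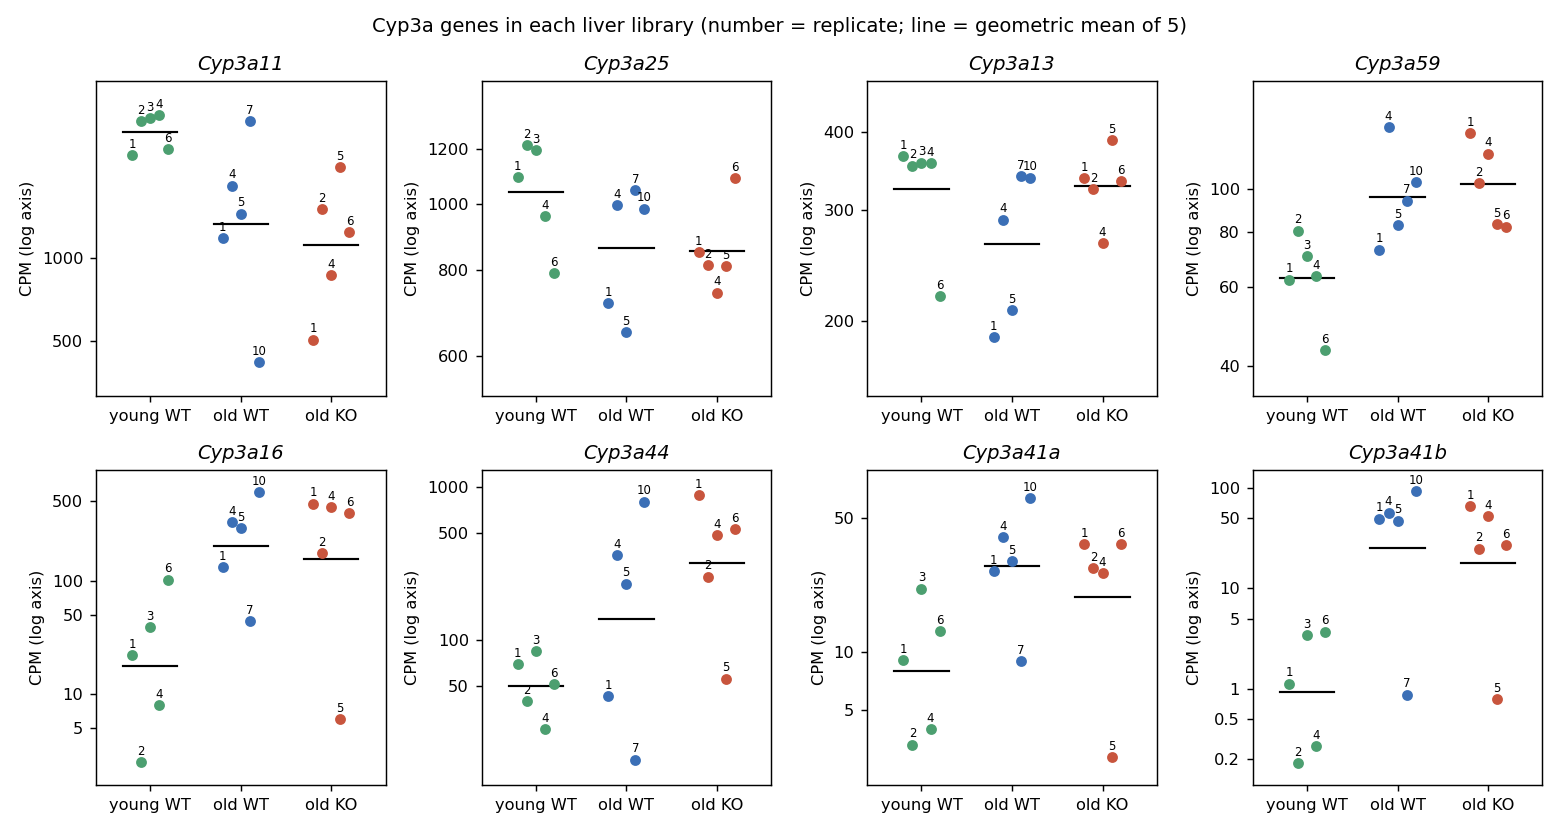
CPM of each member (vertical log axis, with its own range in each panel) in the 15 libraries, coloured by group and numbered by replicate, with a line at the geometric mean of 5 libraries. Old WT 7 and old KO 5 lie within the young WT range for Cyp3a41b (0.880 and 0.797 CPM against 0.183 to 3.71), while the other 8 old mice are at 24.8 CPM or above.

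The second comparison asked what S6K1 deletion changed in old liver, and it shares the old WT libraries with the first. None of the 8 members was called (0 higher, 0 lower, and 0 with an unadjusted p under 0.05 by edgeR), and DESeq2 and limma voom called 0 as well. Over all genes, 0.112% were called higher and 0.421% lower. The old WT and old KO ranges overlapped for all members (0 of 8 without overlap), against 3.2% of all genes without overlap. The median log2 fold change was 0.03 over the members and 0.0008 over all genes.

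The precision of that comparison differed among the members. In old KO mice 1, 2, 4, 5 and 6, Cyp3a25 was at 849, 814, 743, 812 and 1090 CPM and Cyp3a13 at 338, 325, 266, 388 and 334 CPM. The 95% intervals of the log2 fold change of KO over WT were -0.36 to 0.30 for Cyp3a25, -0.10 to 0.65 for Cyp3a13 and -0.30 to 0.48 for Cyp3a59. They were wide for the genes that varied between old mice, at -1.20 to 0.50 for Cyp3a11, -1.62 to 0.85 for Cyp3a41a, -2.33 to 1.26 for Cyp3a41b, -1.83 to 2.02 for Cyp3a16 and -1.04 to 2.25 for Cyp3a44. A several-fold difference in these last 3 genes was not excluded by the intervals.

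The third comparison set old KO against young WT, where age and genotype both differ. Of 8 members, 4 were called higher (Cyp3a16, Cyp3a41b, Cyp3a44 and Cyp3a59) and 1 lower (Cyp3a11), where 12% of all genes were called higher and 11.3% lower. The limit on Cyp3a41b from the filter on low counts holds here too. The ranges did not overlap for 2 members, Cyp3a11 and Cyp3a59, against 13.9% of all genes. The young WT libraries are those of the first comparison.

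Cyp3a11 was at 508, 1496, 868, 2115 and 1236 CPM in the old KO mice, all below the lowest young WT mouse. The log2 fold change was -1.20 ± 0.407 (adjusted p = 0.0427). The call was lost in 10 of 15 fits that left out 1 library, namely young WT 1, 2, 3 or 4, old WT 4 or 5, or old KO 1, 2, 4 or 6 (highest adjusted p = 0.0987). It held under all 8 other alternatives.

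Cyp3a59 was at 134, 103, 120, 83.4 and 82.2 CPM in the old KO mice, all above the highest young WT mouse. The log2 fold change was 0.70 ± 0.187 (adjusted p = 0.0136), called in every alternative. Cyp3a44 was at 886, 259, 482, 55.6 and 530 CPM, with only old KO 5 within the young range. Its log2 fold change was 3.03 ± 0.838 (adjusted p = 0.0168), and it too was called in every alternative.

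Cyp3a41b was at 64.9, 24.8, 51.8, 0.797 and 26.6 CPM in the old KO mice, again with only mouse 5 within the young range (log2 fold change 4.34 ± 1.04, adjusted p = 0.00758, and 0.206 under limma voom). Cyp3a41a was at 36.8, 27.4, 25.96, 2.85 and 36.6 CPM (1.36 ± 0.604, adjusted p = 0.114), and with both copies summed the log2 fold change was 2.33 and passed. Cyp3a16 was at 477, 174, 445, 6.04 and 396 CPM in the old KO mice (3.11 ± 0.989, adjusted p = 0.0326). Old KO 5 was again the mouse at the young level. The Cyp3a16 call was lost without young WT 1, 2, 3 or 4 or old KO 1 or 4 (highest adjusted p = 0.0743) and under limma voom (adjusted p = 0.0570). Cyp3a13 (-0.0015 ± 0.176, adjusted p = 0.996) and Cyp3a25 (-0.29 ± 0.155, adjusted p = 0.191) were not called.

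**Figure D3:**
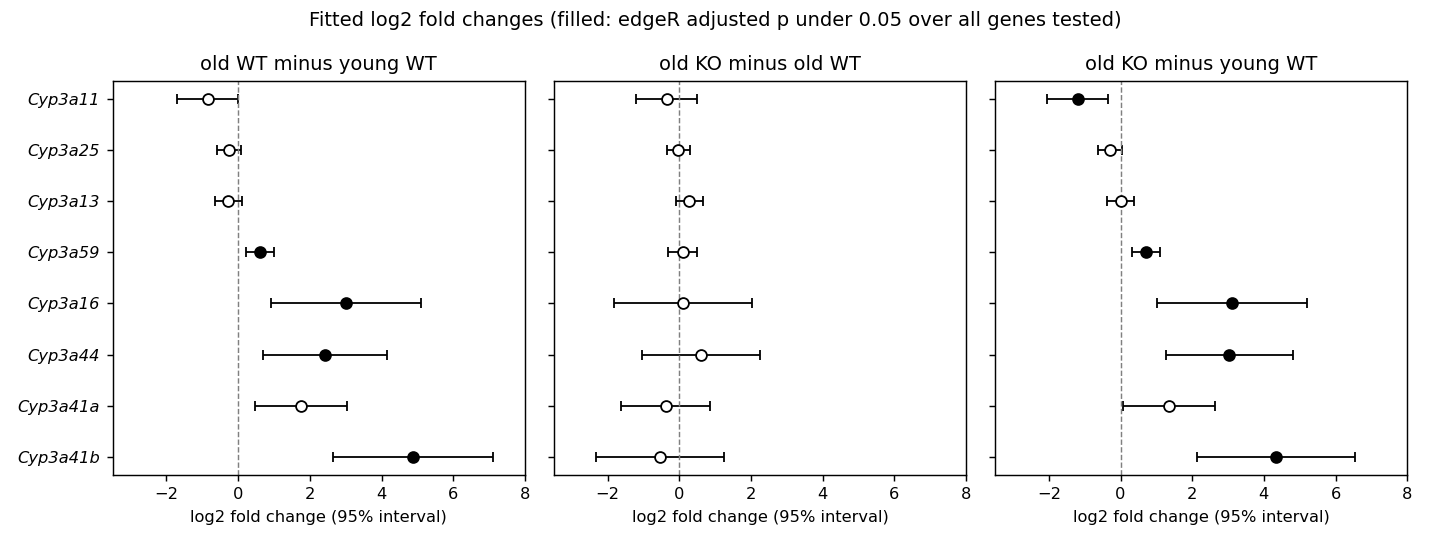
Fitted log2 fold change of each member (horizontal axis) with its 95% interval in the 3 comparisons. Filled points passed the test, with 4 members higher with age, 0 called between the old genotypes, and 4 higher and 1 lower in old KO against young WT.

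The makeup of the family differed widely among old mice. The 4 genes with like upstream sequence (Cyp3a16, Cyp3a41a, Cyp3a41b and Cyp3a44), grouped here after their levels were seen, made up 0.991% to 5.77% of the summed CPM per kb of the 8 members in young WT libraries. In old WT mice 1, 4, 5, 7 and 10 they made up 12.5%, 22.9%, 23.8%, 1.91% and 50.4%. In old KO mice 1, 2, 4, 5 and 6 the values were 49.1%, 17.8%, 38.1%, 2.24% and 30.5%. Of the 10 old mice, 8 were above every young mouse, and the remaining pair, 1 of each genotype, lay within the young range. The levels of these shares depended on the length used. Divided by windows found once, a scale added after seeing the data on which Cyp3a41a with its 23 windows weighs most, the 4 genes took 6.37% to 28.8% of young WT sums, 15.2% to 80.9% of old WT sums and 8.73% to 74.7% of old KO sums. On that scale too, old WT 7 and old KO 5 lay within the young range and the other 8 old mice above it.

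The range of the Cyp3a11 share was 57.6% to 68.6% for young WT libraries, 10.9% to 65.3% for old WT and 13.7% to 60.2% for old KO. Its lowest shares were in old WT 10 and old KO 1, the mice with the highest share of the 4 genes, and its highest shares among old mice were in old WT 7 and old KO 5. Shares within a library have a fixed sum, so a higher share of the 4 genes leaves less for the other members. The sum over the family was 1923 ± 238 CPM per kb in young WT, 1592 ± 375 in old WT and 1536 ± 127 in old KO. The Cyp3a59 share was 1.66% ± 0.225 in young WT, 3.12% ± 0.520 in old WT and 3.43% ± 0.841 in old KO. Neither old group overlapped young WT, and in both contrasts an exact permutation test gave 0.00794, the smallest p that 5 against 5 allows. Divided by the number of 50-base windows found once in place of exon length, the Cyp3a59 shares of young WT and each old group overlapped, with differences of 0.271 percentage points with age (exact permutation p = 0.262) and 0.728 in old KO against young WT (exact permutation p = 0.0556). No share passed after adjustment over the 24 tests (lowest adjusted p = 0.0733, exact permutation tests per kb). In the tests that left out 1 library, 6 share differences passed after adjustment.

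**Figure D4:**
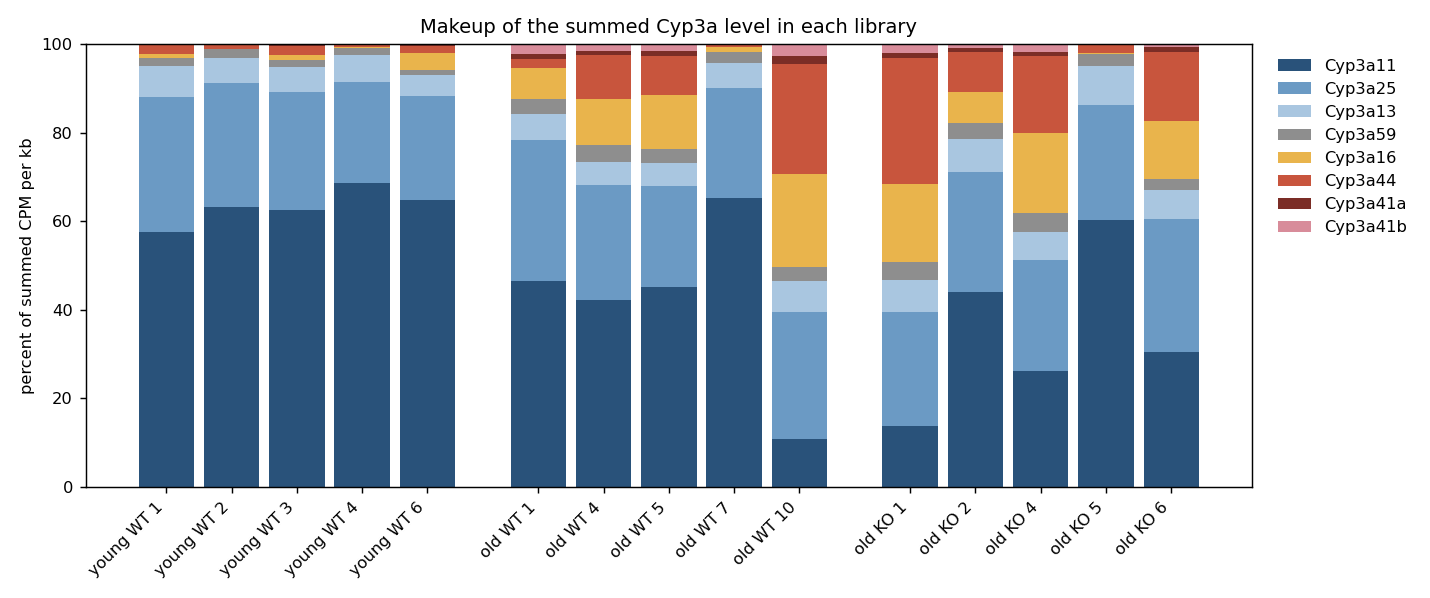
Percentage of the summed CPM per kb taken by each member (stacked bars, vertical axis from 0 to 100%) in the 15 libraries. Cyp3a11 takes 57.6% to 68.6% in young WT and as little as 10.9% in old WT 10, where Cyp3a16, Cyp3a41a, Cyp3a41b and Cyp3a44 together take 50.4%.

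Hepatocyte markers moved with this makeup within the old groups. Their sum was highest in old WT 7 (154930 CPM, against 109756 to 122689 in the other old WT mice) and in old KO 5 (166248 CPM, against 130188 to 144780 in the other old KO mice). Among these markers Alb was at 114632 CPM in old WT 7 and 118249 CPM in old KO 5, above the 59988 to 102414 CPM of the other 13 libraries. The part of hepatocyte RNA content in the Cyp3a values was not tested. The sum of Kupffer cell and macrophage markers, at 144 to 217 CPM in old KO and 236 to 585 CPM in old WT, did not overlap between the old genotypes. Other marker sums moved with age. B and plasma cell markers summed to 4.70 to 9.13 CPM for young WT, 9.75 to 45.1 CPM for old WT and 14.6 to 74.4 CPM for old KO, and adipocyte markers, in the same order, to 19.3 to 125.7 CPM, 7.69 to 15.3 and 3.93 to 8.40. For both, neither old group overlapped young WT, and their part in the age differences of the Cyp3a genes was not tested.

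Members were then compared within groups, as deviations of log2 CPM from the group mean over 15 libraries, with 100000 permutations within groups and adjustment over 28 pairs. Cyp3a16 varied together with Cyp3a41b (r = 0.91, rho = 0.90, both adjusted permutation p = 0.00056), and r was 0.87 without the 2 libraries farthest from the median. Cyp3a16 with Cyp3a44 gave r = 0.77 (adjusted permutation p = 0.0015) and rho = 0.77 (adjusted permutation p = 0.0027), with r = 0.80 without 2 libraries. Cyp3a41a with Cyp3a41b gave r = 0.94, though reads may be shared between these copies. Cyp3a41a with Cyp3a16 gave r = 0.94, and Cyp3a44 gave r = 0.82 with each of Cyp3a41a and Cyp3a41b. Without 2 libraries, the last of these fell to 0.65 for Cyp3a41a and 0.54 for Cyp3a41b. Within each group alone (n = 5, no test), all 6 pairs among the 4 genes had r above 0, from 0.56 to 0.99.

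Cyp3a11 was inversely related to Cyp3a16: r was -0.62 (adjusted permutation p = 0.0359) and rho -0.67 (adjusted permutation p = 0.0337), and r was -0.64 without 2 libraries. Within young WT, old WT and old KO the same r was -0.54, -0.78 and -0.76. With Cyp3a44, r was -0.75 (adjusted permutation p = 0.0478) but rho was -0.55 (adjusted permutation p = 0.235). With Cyp3a41b, r was -0.71 (adjusted permutation p = 0.0675) and rho -0.69 (adjusted permutation p = 0.0337), and with Cyp3a41a the values were -0.63 (0.0575) and -0.48 (0.242 for rho, adjusted permutation p). Cyp3a13 with Cyp3a25 gave r = 0.80 (adjusted permutation p = 0.0262) and rho = 0.60 (adjusted permutation p = 0.149). CPM within 1 library share a total, and the old libraries at the ends of these relations are few.

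**Figure D5:**
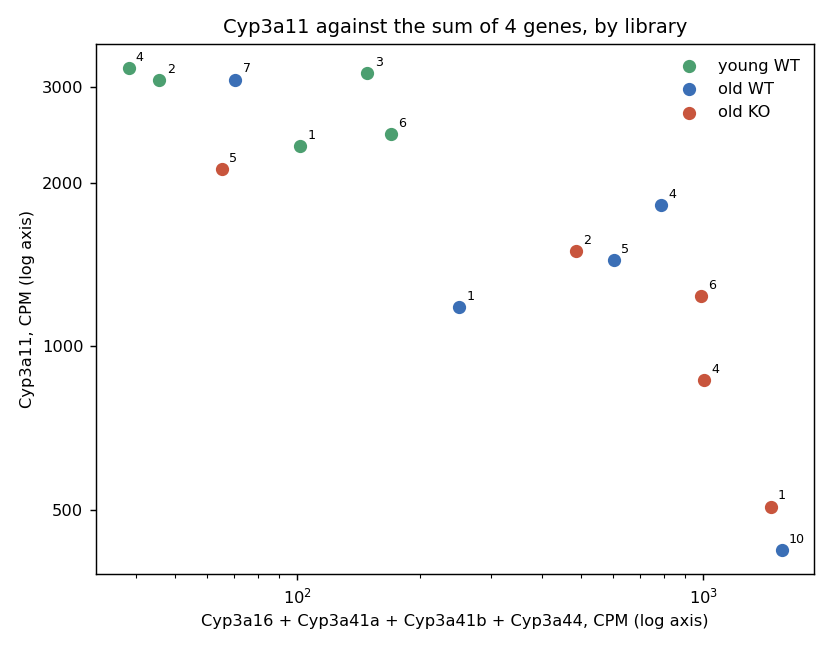
Cyp3a11 CPM (vertical log axis) against the summed CPM of Cyp3a16, Cyp3a41a, Cyp3a41b and Cyp3a44 (horizontal log axis) in the 15 libraries, coloured by group and numbered by replicate. The young WT mice lie at 38.4 to 170 CPM of the 4 genes with old WT 7 (70.3) and old KO 5 (65.3), and old WT 10 and old KO 1 lie at the other end with 1561 and 1465 CPM and Cyp3a11 at 422 and 508 CPM.

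For the members, the genes outside the family most like it were sought by Pearson's r of log2 CPM over the 15 libraries, among 12125 genes with a mean of at least 1 CPM, which is a description without a test. The closest gene was Bok for Cyp3a11 (r = 0.90), Acer3 for Cyp3a16 (0.91), Pde7a for Cyp3a25 (0.95), Fam126a for Cyp3a41a (0.86), 2810055F11Rik for Cyp3a41b (0.94), Dct for Cyp3a44 (0.90) and Acpp for Cyp3a59 (0.91). A1bg, a female-predominant liver gene, was the third gene for Cyp3a16 (r = 0.89). It was at 11.1 to 278 CPM in young WT, 1370 to 5094 CPM in old WT and 658 to 2278 CPM in old KO apart from old KO 5 at 86.9 CPM. Old KO 5 was thus at the young level for A1bg as well, whereas old WT 7 (1370 CPM) was not.

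Regulators of Cyp3a transcription were called with age about as often as all genes. Nr1i2 (PXR) was at 86.3 ± 11.3 CPM in young WT, 78.4 ± 7.39 in old WT and 78.2 ± 16.3 in old KO, with a log2 fold change of -0.14 with age (adjusted p = 0.472). Nr1i3 (CAR) was at 297 ± 22.2, 284 ± 62.3 and 309 ± 42.7 CPM (-0.06 with age, adjusted p = 0.788). Of 23 regulators tested, 3 rose and 2 fell with age (against 9.92% and 8.91% of all genes). Between the genotypes 0 changed (0.112% of all genes were higher and 0.421% lower). In old KO against young WT 6 were higher and 2 lower (12% and 11.3% of all genes). Nfil3, a transcriptional repressor of the circadian system, rose with age (22.7 to 48.1 CPM, log2 fold change 1.08, adjusted p = 0.00382). The glucocorticoid receptor Nr3c1 rose by 0.32 on the log2 scale (adjusted p = 0.0438) and the coactivator Ppargc1a fell by 0.98 (adjusted p = 0.0443). In old KO against young WT, the corepressor Nr0b2 was higher (9.13 and 22.7 CPM, log2 fold change 1.32, adjusted p = 0.0104) and so was Cebpa, a hepatocyte transcription factor (0.41, adjusted p = 0.0139).

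Of 15 genes for electron transfer and heme supply, 4 rose and 2 fell with age, where 9.92% of all genes rose and 8.91% fell. Alas1 fell, from 901, 371, 547, 486 and 377 CPM in the young WT mice to 169, 195, 215, 127 and 279 CPM in the old WT mice. The groups did not overlap (log2 fold change -1.45 ± 0.272, adjusted p = 0.00266), and old KO mice were at 188 to 390 CPM. Por fell from 594 ± 178 to 324 ± 75.0 CPM (-0.88 ± 0.206, adjusted p = 0.0089). Cyb5b, a cytochrome b5 gene, and Cyb5r3, a cytochrome b5 reductase gene, rose by 0.75 and 0.38 on the log2 scale (adjusted p = 0.00435 and 0.0228). Cyb5a, another cytochrome b5 gene of the list, was not matched to a counted gene by its symbol, so its level is not given. Between the old genotypes 0 rose and 1 fell, where 0.112% of all genes were called higher and 0.421% lower. The gene that fell was Hmox1, which breaks down heme, at 23.4 CPM in old WT and 13.0 CPM in old KO (-0.85 ± 0.182, adjusted p = 0.0484). The Kupffer cell and macrophage marker sum was also lower in old KO (144 to 217 CPM) than in old WT (236 to 585 CPM). Its part in the Hmox1 difference was not tested. In old KO against young WT, 6 of the 15 genes were higher and 3 lower, where 12% of all genes were called higher and 11.3% lower. Alas1 was at -1.19 (adjusted p = 0.00562), Por at -0.78 (adjusted p = 0.0133) and the heme-binding partner Pgrmc1 at 0.44 (adjusted p = 0.0105).

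Of 24 other targets of PXR and CAR, 10 rose and 3 fell with age (median log2 fold change 0.27), 0 changed between the genotypes, and in old KO against young WT 10 were higher and 4 lower. The shares of all genes were 9.92% and 8.91% with age, 0.112% and 0.421% between the genotypes, and 12% and 11.3% in old KO against young WT. Gsta2, a glutathione transferase, rose from 6.13 to 19.2 CPM with age (1.64 ± 0.194, adjusted p = 0.000147), Cyp2a5 from 155 to 315 CPM (1.03, adjusted p = 0.00457) and the drug exporter Abcb1a from 5.87 to 13.9 CPM (1.25, adjusted p = 0.00451). Alas1 and Por are on this list as well and fell. In old KO, Gstm3 (56.6 CPM against 6.91 in young WT) and Gstm1 (1176 against 566 CPM) were also higher.

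Genes known for higher expression in female or in male liver are listed apart from the Cyp3a family. All mice here were female, so a difference between sexes was not measured. Of 30 female-biased genes, 12 rose and 4 fell with age (median log2 fold change 0.55), beside 9.92% and 8.91% of all genes. Ntrk2 (2.91 to 49.1 CPM), Hao2 (3.55 to 73.1 CPM) and Slc22a27 (19.5 to 53.2 CPM) rose, and Sult3a1 fell from 168 to 6.03 CPM (-4.80 ± 0.548, adjusted p = 0.000108). Of 22 male-biased genes tested, 0 rose and 10 fell (median -0.91) beside the same shares of all genes, among them Cyp2d9 (45.2 to 3.55 CPM), Mup3 (1699 to 360 CPM), Susd4 (4.70 to 0.547 CPM) and Mup21 (3.86 to 1.48 CPM). Mup7 and Mup10 of the same Mup family fell as well, and sequence shared among the Mup genes was not examined.

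Between the old genotypes, 2 female-biased genes were higher in KO and 0 lower, and 0 male-biased genes changed. Over all genes, 0.112% were called higher in KO and 0.421% lower. Sult3a1 was at 48.3 CPM in old KO against 6.03 in old WT (2.999 ± 0.512, adjusted p = 0.0223), and Cyp2c40 at 125 against 79.5 CPM (0.65 ± 0.112, adjusted p = 0.0223). Against young WT, old KO had 12 female-biased genes higher and 3 lower, with Slc22a26 (287 against 145 CPM) among the higher. It had 1 male-biased gene higher and 9 lower, with Slco1a1 (8.96 against 64.2 CPM), C6 (8.47 against 23.8 CPM) and Cyp2u1 (0.855 against 3.01 CPM) among the lower. Over all genes, 12% were called higher and 11.3% lower in old KO against young WT.

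Zonation of the liver lobule was looked at because P450 genes are mostly pericentral. Of 20 pericentral genes, 1 rose (Slc13a3, 1.28) and 4 fell with age, with Oat (-0.84), Cyp27a1 (-0.58) and Glul (-0.54, the glutamine synthetase of the innermost hepatocytes) among them. Of 20 periportal genes, 1 rose (Ctsc, 0.86) and 4 fell, with Cps1 (-1.27) and Cyp2f2 (-0.75) among them. The medians over both lists were -0.18 and -0.20 on the log2 scale, and 0 genes of either list changed between the genotypes. With age 9.92% of all genes rose and 8.91% fell, and between the genotypes 0.112% were higher and 0.421% lower. In old KO against young WT, 4 pericentral genes were higher, with Rgn (0.59) and Cyp1a2 (0.73) among them, and 2 lower, while 2 periportal genes were higher, with Pigr (0.51), and 1 was lower. In that comparison 12% of all genes were called higher and 11.3% lower.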

How the data were processed

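Poly(A) RNA libraries (stranded kit, single-end 50-base reads) of 15 livers were aligned by the authors with TopHat2 2.0.11 to mm9. The paper names HTSeq as the counter, and the deposited counts are raw reads per gene. The annotation, strand setting and treatment of reads with several matches are not given in the sources used here. Groups were taken from the labels, which give no batch. edgeR 4.0.16 was used on the counts (TMM, filter on low counts, quasi-likelihood test over 14258 genes and all 15 libraries, Benjamini-Hochberg adjustment, threshold 0.05). It was also run on simulated counts in which all genes had the same spread. That setting does not cover genes as variable between old mice as Cyp3a41b or Cyp3a44. Fold changes are log2, and CPM uses TMM library sizes unless counts are named. Shares of the family and correlations used CPM per kb or log2 CPM with permutation tests (scipy 1.17.1). DESeq2 1.42.0, limma 3.58.1 (voom), other scalings and filters and left-out libraries were alternatives. Named genes were the 8 members, Rps6kb1, Nr1i2, Nr1i3, Por, Alas1, Cyp3a57, the genes most like each member and up to 4 called genes a list and comparison with the smallest adjusted p. Others were chosen after their values were seen. The members and lists were chosen with earlier results of these data known. A few genes that this rule names are not reported here.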

Additional observations from a re-analysis of the deposited data

Results flagged for a closer look

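Of the 24 sets of 5 libraries (8 members in 3 groups) examined for a library far from the rest, 1 had such a library, and chance gives about 1 in 20. Cyp3a13 was at 218.592 CPM in young WT 6, against 353.648 to 366.294 CPM in the other 4 young WT mice. The same library also had the lowest Cyp3a25 (792 CPM) and Cyp3a59 (43.4 CPM) of its group, the highest Cyp3a16 (102 CPM) and the lowest hepatocyte marker sum of its group (101919 CPM, against 143275 to 152792 CPM). The part of the hepatocyte content in these values was not tested. Without young WT 6, the age log2 fold change of Cyp3a13 was -0.39 and still did not pass the test.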

How the results depend on the processing

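No member was called between the genotypes in any alternative. With age, 2 members were called under limma voom, 2 with a replicate block and 1 to 6 without single libraries, against 4. In old KO against young WT, 3 were called under limma voom and 3 to 6 without single libraries, against 5. The replicate numbers did not pair the mice (same-number correlations of deviations -0.153 to 0.077), so the replicate block is given only here, and its change of calls has no tested cause. DESeq2, the other scalings and filters and the 10 libraries of each contrast kept the counts within 1.5 times, though not always of the same genes: with age, the 10 libraries called Cyp3a41a and not Cyp3a44. The replicate block called Cyp3a41a and Cyp3a41b with age. The causes of these moves were not tested.

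Signs turned only for values that were not called. For Cyp3a13 in old KO against young WT, the log2 fold change was 0.0011 under DESeq2, 0.022 under limma voom, 0.0015 with 10 libraries, 0.034 with the replicate block and -0.12 to 0.067 without single libraries. Between the genotypes, Cyp3a16 was -0.39 under limma voom, -0.58 with the replicate block and -0.19 to 0.59 without single libraries. Without single libraries, the ranges were -0.13 to 0.037 for Cyp3a25 (0.082 with the replicate block), -0.015 to 0.24 for Cyp3a59 and -0.64 to 0.033 for Cyp3a11.

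Of the shares of the family (percentage points), Cyp3a13 with age was 0.360 without division by length and -0.317 to 0.331 without single libraries, and -0.295 in old KO against young WT per 50-base window found once. On that window scale Cyp3a25 was -8.64 with age and -6.47 in old KO against young WT. Without single libraries Cyp3a25 was -0.684 to 1.58 with age, -0.973 to 1.25 between the genotypes and -0.292 to 1.58 in old KO against young WT, and Cyp3a16 -1.52 to 3.51 between the genotypes. Depth limits Cyp3a41b most, with 6 to 106 reads in the young WT libraries.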
